A study of Ogataea parapolymorpha with 16 samples.

Results

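Late-stage retentostat cultures of the yeast *Ogataea parapolymorpha* were compared with glucose-limited chemostat cultures at a specific growth rate of 0.025 per h. All cultures of these conditions were taken, 8 of the 16 samples of the series: 2 retentostat cultures of strain IMD010, 2 retentostat cultures of strain CBS11895, 2 chemostat cultures of IMD010 and 2 chemostat cultures of CBS11895. CBS11895 (DL-1) is the wild type. IMD010 is a strain made from CBS11895 by insertion of a single nucleotide in NUBM (HPODL_04625), which shifts the reading frame of a subunit of respiratory complex I that the enzyme needs to function, and it represents 1 clone. In the retentostats the outflow passed a filter that kept all cells in the vessel, so that growth slowed to about 0.001 per h at the same dilution rate of 0.025 per h. The conditions also differed in other ways. The retentostats had a working volume of 1.4 liters, a feed with 5 g/liter glucose after a chemostat phase with 10 g/liter, 1.5 times the trace elements and 2 times the vitamins, and 10% NH4OH as the base that held the pH at 5.0. By the sample labels, the chemostats had 1.0 liter, 7.5 g/liter glucose, the standard trace elements and vitamins, and 2 M KOH. The paper's growth data at 0.025 per h came mostly from chemostats run before the retentostats under retentostat settings. Which chemostats were sampled for RNA is not stated there. All vessels were kept at 30°C. The retentostats were sampled after weeks of cell retention, so cell density and time in culture differed too. The effect of growth rate cannot be told apart from that of the medium, base, volume, cell density and time in culture. All genes were tested by their locus tag, and levels are given as TMM-normalized FPKM for each culture. These are read counts scaled by the depth of the library and by a fixed divisor for each gene, with a further scaling factor for each library. The divisor in the deposited values was not the gene length, so the same FPKM stands for different read numbers in different genes. Fold changes are on the scale of log2 (FPKM + 1), which understates the change of genes with low values. A retentostat sample holds RNA of every cell kept, whatever its age, and a change in the share of some cells cannot be told apart from a change within cells.

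A chemostat holds cells at a fixed growth rate by the supply of a limiting nutrient, here glucose. In a retentostat the same supply is shared by an ever larger number of cells until nearly all of it goes to maintenance, the energy a cell needs to stay alive without growing. Cells that seldom divide copy their DNA seldom and so have little need for new histones, the proteins that package DNA, whose genes are transcribed mainly during DNA replication. NADH from glucose breakdown can be reoxidized in mitochondria of this yeast by complex I, which pumps protons, or by alternative NADH dehydrogenases, which do not.

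Per culture, 16522183 to 20713290 reads could be recovered (median 18416447.5). The first principal component, with 73.3% of the variance, separated the 4 retentostat from the 4 chemostat cultures, and the second, with 13.8%, the strains. Between replicate cultures, log2 levels differed with an SD over genes of 0.201 in IMD010 retentostats, 0.167 in CBS11895 retentostats, 0.168 in IMD010 chemostats and 0.275 in CBS11895 chemostats, where 43 genes differed by more than 1 on the log2 scale. The 3 rRNA and 80 tRNA genes held 0.2886 to 0.4695% of the reads in retentostats and 0.1123 to 0.192% in chemostats. Short genes were lower and long genes higher in retentostats: the median log2 fold change was −0.64 for the 80 genes of up to 300 bp and 0.18 for the 318 genes of more than 3000 bp. The part of RNA quality or of this length trend in the results below was not tested. For many of the lists and genes whose call or count it moved, though not for all, values after its removal stand beside the result.

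Of 5169 genes tested with limma, 69 were higher and 36 lower in retentostats than in chemostats over both strains, with a log2 fold change beyond 2 in either direction and an FDR (adjusted p) below 0.001. These 105 genes are 2.03% of those tested (1.33% higher, 0.696% lower). With FDR as the sole criterion (below 0.05), 1769 rose and 1766 fell (68.4%, or 34.2% each), and the median log2 fold change of all genes was 0.00. Without the TMM factors the split at that FDR was 1286 higher and 2150 lower. With all 16 samples of the series in the fit it was 1024 higher and 958 lower, and most counts in the gene lists below were smaller too. A log2 fold change beyond 1 at that FDR was reached by 205 genes in the higher and 222 in the lower direction (8.26%, or 3.97% and 4.29%). For 2427 genes (47.0%) the 4 retentostat cultures did not overlap with the 4 chemostat cultures. They overlapped for 3 of the 105 genes, HPODL_03768, HPODL_03771 and HPODL_03772, which were high in IMD010 retentostats alone. Of the 105 genes, 37 had a product name, and for 24 of these, 12 higher and 12 lower, the name told more than a general type of protein.

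**Figure D1:**
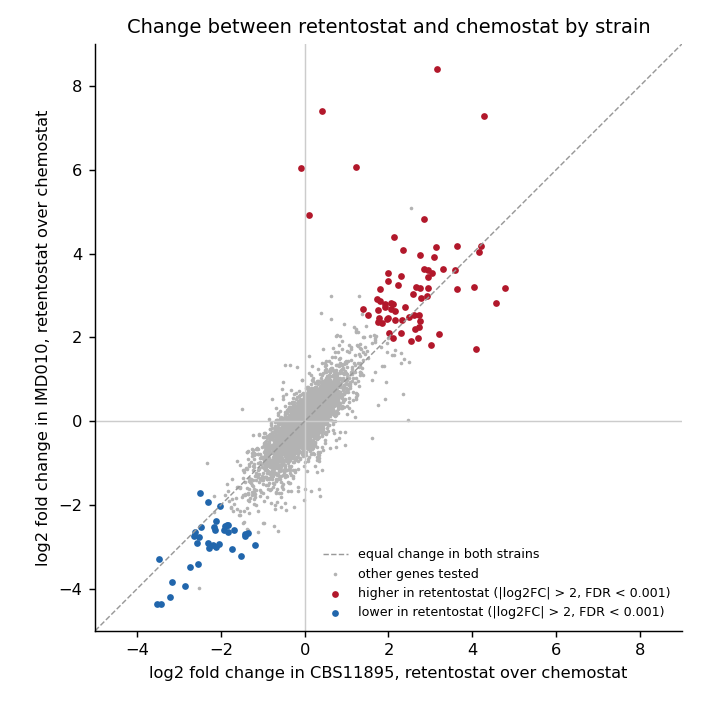
Log2 fold change of each of the 5169 genes, retentostat over chemostat at 0.025 per h, in IMD010 (vertical axis) and in CBS11895 (horizontal axis); the dashed line marks equal change. The 69 genes called higher (red) and the 36 called lower (blue) over both strains lie in the same direction in both strains except for 1, and most lie further from 0 in IMD010.

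Histone genes were among the most decreased named genes. All 8 core histone genes fell (FDR under 0.05), against 34.2% of all genes, and 4 of them passed the stricter thresholds, where 0.696% of all genes were called lower. With all 16 samples in the fit, 6 fell at an FDR under 0.05. The median log2 fold change of the 8 was −1.74, against 0.00 for all genes, and −1.42 after removal of the length trend. Histone genes come in similar copies and reads with more than 1 position had been removed, so the split of reads between copies is uncertain. HPODL_01325, a histone H4 gene (RefSeq assembly of CBS11895, chromosome VI, 396712 to 397023), was at 239 and 214 in IMD010 retentostats and 577 and 591.6 in CBS11895 retentostats, against 3604 and 2936 in IMD010 chemostats and 4211 and 6539 in CBS11895 chemostats. The retentostat cultures lay below the chemostat cultures, which was a condition for its choice, and the IMD010 retentostats lay lowest (log2 fold change −3.50, standard error 0.13, FDR = 2.85e-07). Its neighbor on chromosome VI, the histone H3 gene HPODL_01324 (395984 to 396394), was at 84.6 and 60.3 in IMD010 retentostats and 150 and 157 in CBS11895 retentostats, against 817 and 722 in IMD010 chemostats and 710 and 1138 in CBS11895 chemostats, a log2 fold change of −2.98. The neighboring H2A and H2B genes on chromosome III, HPODL_00354 (338492 to 338887) and HPODL_00353 (337826 to 338221), had log2 fold changes of −2.66 and −2.48. The other 4 histone genes fell less: the second H4 gene, HPODL_01892, averaged 2003 ± 154 in retentostats and 4051 ± 730 in chemostats (SD, n = 4 each), and the other 3 had log2 fold changes of −0.64 to −0.53. No histone gene had a difference between the strains in its change that passed an FDR of 0.05.

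**Figure D2:**
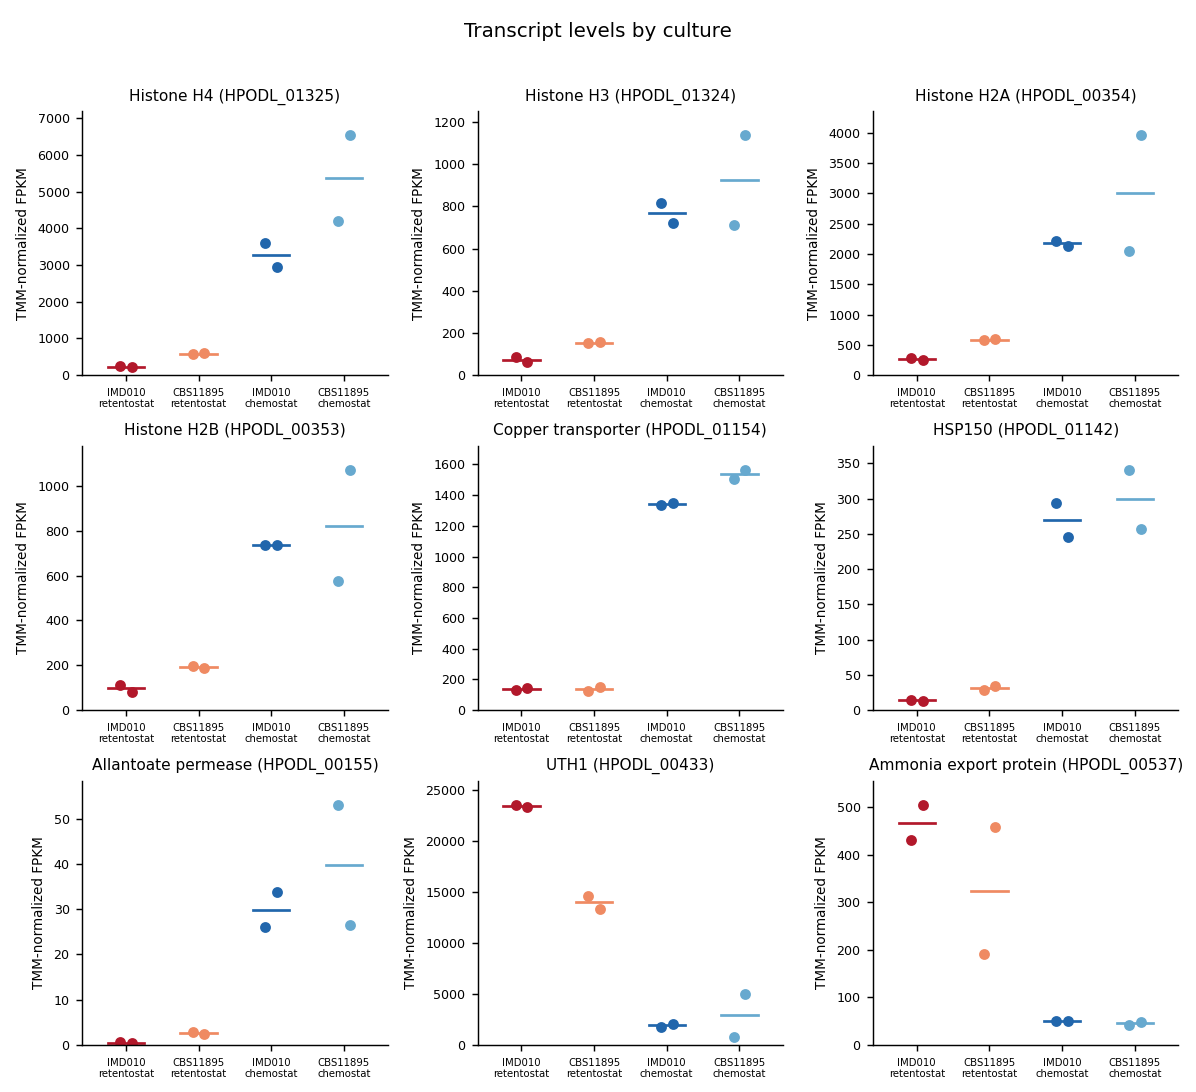
TMM-normalized FPKM (linear axis from 0) of 9 named genes in each culture; points are the 2 cultures of a group and lines their mean. The 9 were picked among called genes whose 4 retentostat cultures do not overlap with the 4 chemostat cultures, so this separation was set by the choice. It holds for 47.0% of all genes. The 2 CBS11895 chemostat cultures lie apart for UTH1, at 760 and 5022.

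Genes of DNA replication changed less as a group. Of 18 tested, 6 fell (33.3%, against 34.2% of all genes) and 2 rose (11.1%, against 34.2%), with a median log2 fold change of −0.08. The share that fell was that of all genes. HPODL_00692, a subunit of the GINS complex, which is part of the replicative helicase, was at 6.21 and 7.12 in IMD010 retentostats and 9.86 and 9.74 in CBS11895 retentostats, against 20.9 and 19.4 in IMD010 chemostats and 22.7 and 27.6 in CBS11895 chemostats (log2 fold change −1.37, FDR = 8.28e-06). HPODL_00692 passed the filter for low levels (a group mean of at least 10 FPKM) only through the chemostats, where it was high. The large chain of ribonucleotide reductase, HPODL_01654, which makes the building blocks of DNA, had a log2 fold change of −1.14 and the replication licensing protein Cdc18, HPODL_01313, of −1.01. In contrast, subunit 1 of replication factor C, HPODL_01204, the clamp loader, rose by 0.62. The licensing factors MCM4 (HPODL_00647) and MCM7 (HPODL_01197) had log2 fold changes of 0.24 and −0.06, neither past the test (FDR = 0.188 and 0.707).

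Among 24 genes of chromosome segregation and the cell cycle, 13 fell (54.2%, against 34.2% of all genes) and 9 rose (37.5%, and 7 with the length trend removed), with a median of −0.36. Those that fell included 5 kinetochore genes, whose products attach chromosomes to the spindle, among them NUF2 (HPODL_01577, −1.14) and NDC80 (HPODL_00462, −1.03), as well as a kinesin heavy chain (HPODL_00616, −1.76) and an antagonist of the mitotic exit network (HPODL_00815, −1.65). The cyclins did not move together. CLN1 (HPODL_00472), a G1/S cyclin, was at 159 and 160 in IMD010 retentostats and 250 and 313 in CBS11895 retentostats, against 439 and 440 in IMD010 chemostats and 371 and 466 in CBS11895 chemostats, with log2 fold changes of −1.46 in IMD010 and −0.57 in CBS11895. The cyclin gene annotated as puc1 (HPODL_00367) was higher in retentostats, at 4267 and 3306 in IMD010 and 3659 and 3320 in CBS11895, against 1819 and 1997 in IMD010 chemostats and 1088 and 2757 in CBS11895 chemostats (log2 fold change 0.99, standard error 0.25, FDR = 0.0063). TOS4 (HPODL_00413), a transcription factor that in *Saccharomyces cerevisiae* acts on genes of the G1/S transition, had a log2 fold change of −2.07, and a WD repeat protein named slp1 (HPODL_00284), which in *Schizosaccharomyces pombe* activates the anaphase-promoting complex, of −2.23. With 5 added to the FPKM in place of 1 these changes were −1.94 and −1.72.

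**Figure D3:**
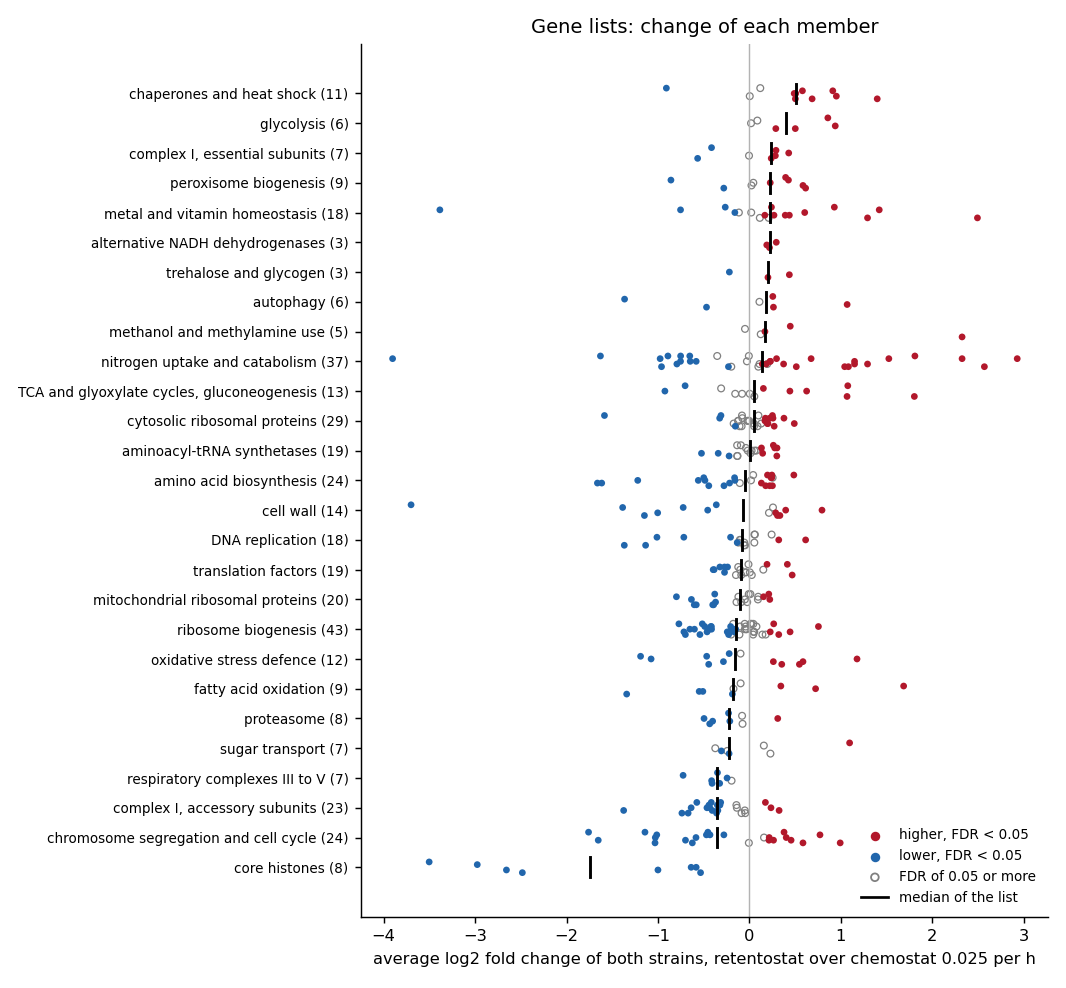
Average log2 fold change of both strains (horizontal axis, retentostat over chemostat) for the tested members of 27 gene lists, with the number tested in parentheses; filled points passed an FDR of 0.05, open points did not, and black bars are medians. The core histones have the lowest median (−1.74) and the chaperones the highest (0.51); most lists hold members on both sides of 0.

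Of the protein synthesis machinery, the genes for cytosolic ribosomal proteins mostly stayed within 0.5 on the log2 scale. Of 29, 10 rose and 4 fell (34.5% and 13.8%, against 34.2% each of all genes), with a median of 0.05. These counts depended on the processing: with the length trend removed 19 rose and 2 fell, and without TMM factors 5 rose and 10 fell. The exception in size was HPODL_01192, a gene for 40S protein S22, at 129 and 192 in IMD010 retentostats and 172 and 187 in CBS11895 retentostats, against 508 and 432 in IMD010 chemostats and 550 and 545 in CBS11895 chemostats (log2 fold change −1.58, FDR = 7.6e-06). Of 43 genes of ribosome biogenesis, which build new ribosomes, 20 fell and 5 rose (46.5% and 11.6%), with a median of −0.15. With all 16 samples in the fit 7 fell and 2 rose. REI1 (HPODL_00685), a factor of late 60S maturation, and PNO1 (HPODL_00363), needed for the small subunit, fell (−0.77 and −0.72), while TSR2 (HPODL_00607) rose by 0.76. Of 20 mitochondrial ribosomal proteins 8 fell and 3 rose, of 19 translation factors 6 fell and 3 rose, and of 19 aminoacyl-tRNA synthetases 3 fell and 6 rose. The medians of these 3 lists lay between −0.10 and 0.01. Their counts moved with the processing: without TMM factors 11 mitochondrial ribosomal proteins fell and 0 rose, and 7 synthetases fell and 3 rose. With the length trend removed 6 synthetases fell and 4 rose. Of 8 proteasome genes 5 fell and 1 rose (62.5% and 12.5%, with a median of −0.22).

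The respiratory chain changed little compared with the histones. NUBM, HPODL_04625, was at 2900 and 2792 in IMD010 retentostats and 2353 and 2186 in CBS11895 retentostats, against 2546 and 2384 in IMD010 chemostats and 1704 and 1831 in CBS11895 chemostats (log2 fold change 0.28, standard error 0.05, FDR = 0.00153). The ranges of the 2 conditions overlapped, since IMD010 lay above CBS11895 in each. The frameshift leaves the transcript countable, so this level is no check of the strain label. Complex I has 7 nuclear subunit genes listed as essential, NUBM among them, of which 4 rose and 2 fell (57.1% and 28.6%, against 34.2% each of all genes). HPODL_02101 rose most (0.43) and HPODL_01287 fell most (−0.57). With the length trend removed 3 rose, since HPODL_03689 no longer passed (FDR = 0.0537). Of 23 accessory subunits 15 fell and 3 rose (65.2% and 13.0%), with a median of −0.35. With all 16 samples in the fit 7 fell and 0 rose. These genes are short (median 423 bp), and with the length trend removed 10 fell and 4 rose, with a median of −0.12. HPODL_05148 was the accessory subunit gene that fell most, at 309 and 301 in IMD010 retentostats and 333 and 337 in CBS11895 retentostats, against 866 and 809 in IMD010 chemostats and 666 and 1018 in CBS11895 chemostats. Of 7 listed genes of complexes III to V, 6 fell and none rose (85.7% and 0.0%, with a median of −0.35). With the length trend removed 5 fell, with a median of −0.28, and with all 16 samples in the fit 1 fell. A subunit of the cytochrome b-c1 complex outside that list, HPODL_03751 (201 bp), was at 382 and 447 in IMD010 retentostats and 348 and 331 in CBS11895 retentostats, against 1936 and 1482 in IMD010 chemostats and 1263 and 1510 in CBS11895 chemostats. Its log2 fold change of −2.03 lay at the edge of the strict thresholds. It was −1.38 with the length trend removed, and −1.97 to −1.93 without the second CBS11895 chemostat, the first IMD010 chemostat or the first IMD010 retentostat culture.

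All 3 genes for alternative NADH dehydrogenases were higher in retentostats over both strains (against 34.2% of all genes), by 0.19 to 0.29 on the log2 scale. These calls depended on the fit: 2 passed with the length trend removed, 1 without TMM factors and 0 with all 16 samples. HPODL_00256 was at 1488 and 1516 in IMD010 retentostats and 1470 and 1462 in CBS11895 retentostats, against 1247 and 1256 in IMD010 chemostats and 1340 and 1253 in CBS11895 chemostats. HPODL_02792 differed between the strains. It was at 254 and 271 in IMD010 retentostats and 167 and 166 in CBS11895 retentostats, against 339 and 286 in IMD010 chemostats and 85.0 and 102 in CBS11895 chemostats. The log2 fold change was −0.25 in IMD010 (FDR = 0.0802) and 0.83 in CBS11895 (FDR = 0.000441), and the difference between them was −1.08 (FDR = 0.00763, and not past 0.05 when all 16 samples of the series entered the fit). HPODL_03354, cytochrome c peroxidase, which reduces hydrogen peroxide with electrons from cytochrome c, rose by 0.59 in the average of both strains, with retentostat cultures at 50000 to 53270 and chemostat cultures at 29420 to 39460.

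Isocitrate lyase and malate synthase, the enzymes specific to the glyoxylate cycle, by which cells build sugars and amino acids from acetyl units, rose in both strains. Isocitrate lyase, its first specific enzyme (HPODL_00142, chromosome I, 278445 to 280091), was at 3299 and 4132 in IMD010 retentostats and 751 and 847 in CBS11895 retentostats, against 483 and 448 in IMD010 chemostats and 591.3 and 454 in CBS11895 chemostats. The chemostat levels of the strains thus overlapped and the retentostat levels did not. The log2 fold change was 2.99 in IMD010 and 0.62 in CBS11895, with an interaction, the IMD010 change minus the CBS11895 change, of 2.36 (standard error 0.20, FDR = 0.000852, and 0.129 with all 16 samples in the fit). Across all genes 13.2% passed an interaction FDR of 0.05. Malate synthase (HPODL_01838), the second specific enzyme, followed the same order, at 3492 and 3908 in IMD010 retentostats and 1668 and 1618 in CBS11895 retentostats, against 1145 and 1100 in IMD010 chemostats and 1308 and 1128 in CBS11895 chemostats (interaction 1.28, FDR = 0.00172, and 0.0455 with all 16 samples). Aconitate hydratase (HPODL_02026), shared with the tricarboxylic acid cycle, rose by 1.33 in IMD010 and 0.80 in CBS11895. The carnitine acetyltransferase HPODL_01480, which moves acetyl units between compartments, was at 8100 and 8504 in IMD010 retentostats and 3914 and 3820 in CBS11895 retentostats, against 1792 and 1924 in IMD010 chemostats and 1476 and 1881 in CBS11895 chemostats (interaction 0.95, FDR = 0.0105, and 0.395 with all 16 samples).

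The list of 13 genes of the tricarboxylic acid and glyoxylate cycles and gluconeogenesis as a whole held 6 genes that rose and 2 that fell, with a median of 0.05. These are 46.2% and 15.4%, against 34.2% each of all genes. The 2 that fell were isocitrate dehydrogenases. HPODL_01696, for instance, was at 12170 and 13580 in IMD010 retentostats and 11890 and 12200 in CBS11895 retentostats, against 25450 and 23160 in IMD010 chemostats and 23490 and 22470 in CBS11895 chemostats, a change of almost the same size in both strains (−0.92 and −0.93). Phosphoenolpyruvate carboxykinase (HPODL_00509), which opens gluconeogenesis, had a log2 fold change of −0.15 and did not pass the test (FDR = 0.234). Of 6 glycolytic genes 4 rose and none fell (66.7% and 0.0%), with a median of 0.40. Both 6-phosphofructokinase genes, of the enzyme that commits sugar to glycolysis, rose, by 0.94 (HPODL_00776) and 0.86 (HPODL_01506). Of 9 genes of fatty acid oxidation 3 rose and 4 fell (33.3% and 44.4%, against 34.2% each of all genes), and 2 rose and 6 fell with the length trend removed. The electron transfer flavoprotein subunit HPODL_00700, which takes electrons from acyl-CoA dehydrogenases, fell by 1.34 on the log2 scale in the average.

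**Figure D4:**
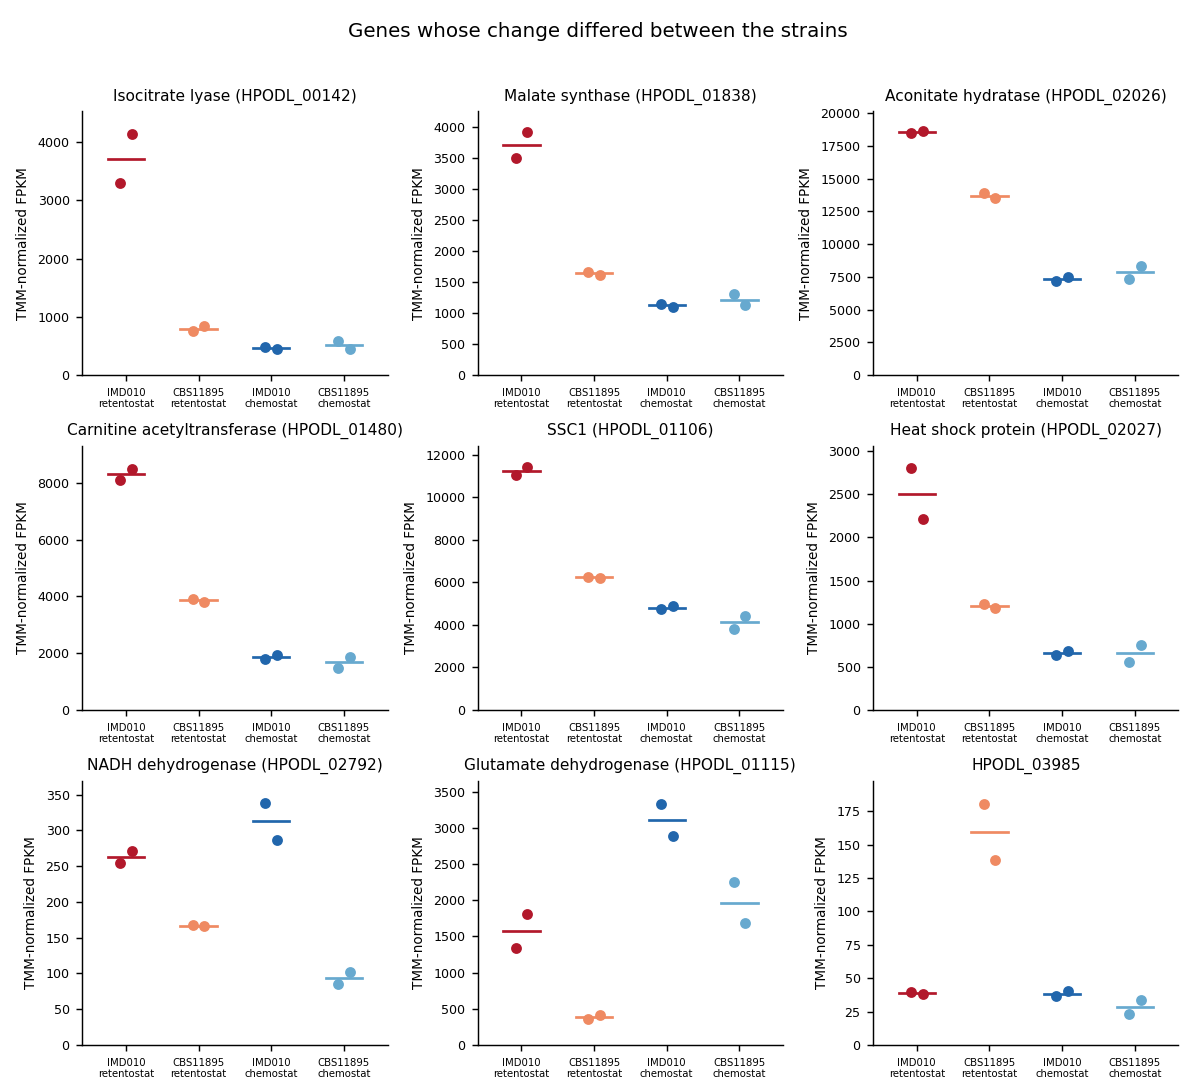
TMM-normalized FPKM (linear axis from 0) in each culture of 9 genes whose change differed between the strains (interaction FDR under 0.05 in the 8 cultures); points are cultures and lines group means. Isocitrate lyase, malate synthase, carnitine acetyltransferase and the heat shock genes are highest in the IMD010 retentostats, whereas HPODL_03985 is high in the CBS11895 retentostats alone.

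Of 11 chaperone and heat shock genes 8 rose and 1, prefoldin subunit 4 (HPODL_01279), fell (72.7% and 9.09%, against 34.2% each of all genes). Their medians were 0.80 in IMD010 and 0.25 in CBS11895. HPODL_02027, annotated as a heat shock protein, rose most. It was at 2802 and 2211 in IMD010 retentostats and 1227 and 1179 in CBS11895 retentostats, against 638 and 689 in IMD010 chemostats and 561 and 750 in CBS11895 chemostats (interaction 1.02, FDR = 0.0197, and 0.152 with all 16 samples). SSC1 (HPODL_01106), the Hsp70 chaperone of the mitochondrial matrix, was at 11060 and 11440 in IMD010 retentostats and 6257 and 6219 in CBS11895 retentostats, against 4733 and 4909 in IMD010 chemostats and 3819 and 4419 in CBS11895 chemostats. HSC82 (HPODL_01825), an Hsp90 chaperone, rose by 0.80 in IMD010 and 0.18 in CBS11895, and its cochaperone STI1 (HPODL_00085) by 0.95 and 0.42. The interaction passed an FDR of 0.05 in 8 of the 11 genes, against 7.06% of all genes with the higher value in IMD010. Of these 8, prefoldin subunit 4 fell less in IMD010 and 7 rose more. That count was 4 without TMM factors, 0 when all 16 samples entered the fit, and 0 without the second IMD010 chemostat culture.

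Genes of nitrogen uptake and catabolism changed in both directions, with 18 of 37 higher and 12 lower (48.6% and 32.4%, against 34.2% each of all genes). The number higher was 14 with the length trend removed and 13 without TMM factors. HPODL_00155, annotated as an allantoate permease, which takes up a purine breakdown product, was at 0.66 and 0.33 in IMD010 retentostats and 2.79 and 2.37 in CBS11895 retentostats, against 26.1 and 33.7 in IMD010 chemostats and 52.9 and 26.6 in CBS11895 chemostats (log2 fold change −3.90). HPODL_00155 passed the filter for low levels only through the chemostats, where it was high. The purine permease HPODL_00162 was lower in IMD010 retentostats, at 39.1 and 98.4, against 390 and 389 in IMD010 chemostats, whereas the CBS11895 cultures were at 499 and 626 in retentostats, against 1120 and 670 in chemostats. The ammonium transporter MEP1 (HPODL_00379) fell by 0.96 on the log2 scale. HPODL_00537, a putative ammonia export protein, was at 430 and 506 in IMD010 retentostats and 191 and 458 in CBS11895 retentostats, against 51.0 and 49.3 in IMD010 chemostats and 42.7 and 49.2 in CBS11895 chemostats (log2 fold change 2.93, standard error 0.23). By the sample labels, the base fed to the retentostats was NH4OH and that of the chemostats KOH. The part of the base in these changes cannot be told apart from that of growth rate. A putative polyamine transporter (HPODL_00918, 2.57) and a putative formamidase (HPODL_01010, 2.33), an enzyme that frees ammonia from formamide, rose as well. With 5 added to the FPKM in place of 1, HPODL_01010 rose by 1.70, under the threshold of 2. Genes with the same annotation could move in opposite directions: 2 neighboring genes annotated as the general amino acid permease GAP1 had log2 fold changes of 1.53 (HPODL_01636) and −0.65 (HPODL_01635), and 2 genes annotated as the proline permease PUT4 had 1.81 (HPODL_01140) and −0.89 (HPODL_01758). In amino acid biosynthesis 9 of 24 genes rose and 11 fell (37.5% and 45.8%), but 1 rose and 12 fell without TMM factors. The NADP-specific glutamate dehydrogenase HPODL_01115, which fixes ammonium into glutamate, was at 1332 and 1811 in IMD010 retentostats and 357 and 418 in CBS11895 retentostats, against 3324 and 2888 in IMD010 chemostats and 2253 and 1681 in CBS11895 chemostats, a fall that was larger in CBS11895 (log2 fold change −2.33) than in IMD010 (−0.996; interaction 1.33, FDR = 0.0162). The difference did not pass with all 16 samples (FDR = 0.132).

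The high-affinity copper transporter of the plasma membrane, HPODL_01154 (chromosome VI, 108956 to 109657), fell to 0.0957 times its chemostat level. It was at 130 and 145 in IMD010 retentostats and 123 and 151 in CBS11895 retentostats, against 1339 and 1346 in IMD010 chemostats and 1508 and 1566 in CBS11895 chemostats. The strains overlapped in retentostats, and the change was of like size in both (log2 fold change −3.38, standard error 0.07, FDR = 2.11e-08). Of the 18 genes of metal and vitamin homeostasis 10 rose and 4 fell (55.6% and 22.2%, against 34.2% each of all genes). The putative siderophore iron transporter HPODL_00011 rose by 2.49 and the siderochrome iron transporter HPODL_01763 by 1.42. With 5 added to the FPKM in place of 1, HPODL_00011 rose by 1.70, under the threshold of 2. FET3 (HPODL_01875), a copper-dependent oxidase of high-affinity iron uptake, rose by 0.60 and the pantothenate transporter HPODL_01033 by 1.29. ZAP1 (HPODL_00695), the activator of zinc uptake genes, fell by 0.75. By the sample labels, trace elements and vitamins were fed at a higher level in the retentostats, and their part cannot be told apart from that of growth rate.

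Of 14 cell wall genes 7 fell and 5 rose (50.0% and 35.7%, against 34.2% each of all genes), and 3 rose with the length trend removed. HSP150 (HPODL_01142), a mannoprotein of the wall, was at 14.5 and 12.9 in IMD010 retentostats and 29.1 and 33.5 in CBS11895 retentostats, against 294 and 246 in IMD010 chemostats and 340 and 257 in CBS11895 chemostats (log2 fold change −3.70, standard error 0.10). The glucanosyltransferase GAS5 (HPODL_01343), which joins wall glucans, fell by 1.15, whereas a chitinase (HPODL_00676) rose by 0.79. UTH1 (HPODL_00433), a member of the SUN protein family of the wall and mitochondria, rose to 23550 and 23340 in IMD010 retentostats and 14640 and 13370 in CBS11895 retentostats, against 1798 and 2015 in IMD010 chemostats and 760 and 5022 in CBS11895 chemostats. The last 2 cultures differed widely, and the standard error was large (log2 fold change 3.23, standard error 0.47, FDR = 0.000342).

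The other named genes that passed the strict thresholds belonged to several functions. An acetylornithine deacetylase (HPODL_00911), an enzyme of arginine metabolism, rose by 3.62, a tannase (HPODL_00160) by 2.76, and the aminotriazole resistance protein (HPODL_00126), an efflux transporter, by 2.22. The change of HPODL_00126 was 1.48, under the threshold, with 5 added to the FPKM in place of 1. A pair of genes known from mating in *S. cerevisiae* rose: STE6 (HPODL_00183), the exporter of a-factor, by 2.20, and KAR5 (HPODL_01475), a nuclear fusion protein, by 2.44. With 5 added to the FPKM, KAR5 rose by 1.86 and no longer passed. The stress protein DDR48 (HPODL_00285) rose by 2.06 and a protein of NAD+ salvage (HPODL_01677) by 2.03. Both lay at the edge of the thresholds, with changes of 1.965 and 1.928 without TMM factors. The myo-inositol transporter HPODL_01198 and the phospholipid methyltransferase HPODL_00058, which makes phosphatidylcholine, fell (−2.25 and −2.16). HPODL_00058 was at 524 and 542.8 in IMD010 retentostats and 572 and 607 in CBS11895 retentostats, against 3054 and 2868 in IMD010 chemostats and 2025 and 2257 in CBS11895 chemostats.

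Of 12 oxidative stress genes 5 were higher and 6 lower (41.7% and 50.0%, against 34.2% each of all genes), and 6 higher and 5 lower with the length trend removed. The superoxide dismutase gene HPODL_01412 was at 7482 and 7707 in IMD010 retentostats and 5447 and 5557 in CBS11895 retentostats, against 2584 and 2725 in IMD010 chemostats and 2808 and 3378 in CBS11895 chemostats. A second superoxide dismutase gene, HPODL_01414, fell by 0.47, and sulfiredoxin (HPODL_00698) and TSA1 (HPODL_00527), a peroxiredoxin that removes peroxides, fell too (−1.19 and −1.08). Of 9 genes of peroxisome biogenesis 5 rose and 2 fell (55.6% and 22.2%). PEX5 (HPODL_00015), the import receptor for peroxisomal proteins, rose by 0.62, and the membrane protein PEX11C (HPODL_00505) fell by 0.86. Of 6 autophagy genes 3 rose (50.0%), led by ATG21 (HPODL_01040, 1.07), and 2 fell (33.3%), of which ATG25 (HPODL_01515, −1.36) acts in the selective breakdown of peroxisomes. Of 3 genes of trehalose and glycogen 2 rose and 1 fell (66.7% and 33.3%), and 1 rose and 1 fell with the length trend removed. Glycogen phosphorylase (HPODL_01450), which breaks glycogen down, rose by 0.44. Of 5 genes of methanol and methylamine use 3 rose and none fell, and of 7 sugar transport genes 1 rose, a permease annotated for lactose (HPODL_01759, 1.10), and 2 fell. The low-affinity glucose transporter HXT3 (HPODL_00453) had log2 fold changes of −1.16 in IMD010 and 0.41 in CBS11895 that did not pass as an average (FDR = 0.393).

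Most of the largest changes were in genes without a product name. HPODL_03869 (chromosome V, 175013 to 175618) was at 5591 and 4882 in IMD010 retentostats and 134 and 131 in CBS11895 retentostats, against 15.2 and 13.95 in IMD010 chemostats and 13.7 and 14.2 in CBS11895 chemostats. It rose in both strains, by 8.39 in IMD010 and 3.15 in CBS11895 on the log2 scale (interaction 5.24, standard error 0.12, FDR = 1.79e-07). HPODL_03212 (chromosome VII, 1461182 to 1462420) and HPODL_02328 (chromosome I, 853397 to 854980) rose by like amounts in both strains: HPODL_03212 by 4.17 in IMD010 and 4.21 in CBS11895, HPODL_02328 by 4.03 and 4.17. HPODL_01274, HPODL_02741, HPODL_04015, HPODL_05071 and HPODL_03860 rose by 3.64 to 3.98 in the average. For HPODL_04015, the second CBS11895 chemostat culture was at 9.60, against 0.11 in the first. HPODL_03225 (chromosome VII, 1479811 to 1481490) fell most, at 87.6 and 71.2 in IMD010 retentostats and 187 and 206 in CBS11895 retentostats, against 1671 and 1611 in IMD010 chemostats and 2493 and 2074 in CBS11895 chemostats (log2 fold change −3.94, standard error 0.09). HPODL_00720, a putative secreted protein, and HPODL_03368 followed (−3.40 and −3.12), then HPODL_04627 and HPODL_04904 (−2.73 and −2.68).

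The first 6 annotated genes of chromosome V (HPODL_03768 to HPODL_03773, 1105 to 8404) were all called higher, the longest run of adjacent called genes, and it came mainly from IMD010. None of the 6 has a product name. All but HPODL_03769 passed the filter for low levels only through the IMD010 retentostats, the group in which they were high. The length of the run thus follows in part from the filter and is no separate support for the rise. HPODL_03769 (2010 to 3104) was at 1596 and 1562 in IMD010 retentostats and 116 and 165 in CBS11895 retentostats, against 10.9 and 7.68 in IMD010 chemostats and 6.08 and 6.41 in CBS11895 chemostats. It thus rose in both strains, though only 4 to 8 reads stood behind each chemostat value. HPODL_03771 (4458 to 5960) was at 371 and 380 in IMD010 retentostats and 0.96 and 1.75 in CBS11895 retentostats, against 1.30 and 1.17 in IMD010 chemostats and 0.87 and 0.61 in CBS11895 chemostats, which in reads was 1093 and 1113, 3 and 5, 5 and 4, and 3 and 2. HPODL_03768 and HPODL_03772 had the same pattern, with 1305 and 1685 and with 1030 and 1384 reads in IMD010 retentostats and at most 34 reads in any other culture. HPODL_03770 and HPODL_03773 had 30 and 34 and 18 and 11 reads in CBS11895 retentostats, against 1584 and 2035 and 77 and 100 in IMD010 retentostats. The next 3 genes of the chromosome stayed under the filter for low levels, and the tenth to the twelfth had average log2 fold changes of 0.29 (HPODL_03777), −0.79 (HPODL_03778) and −0.20 (HPODL_03779).

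**Figure D5:**
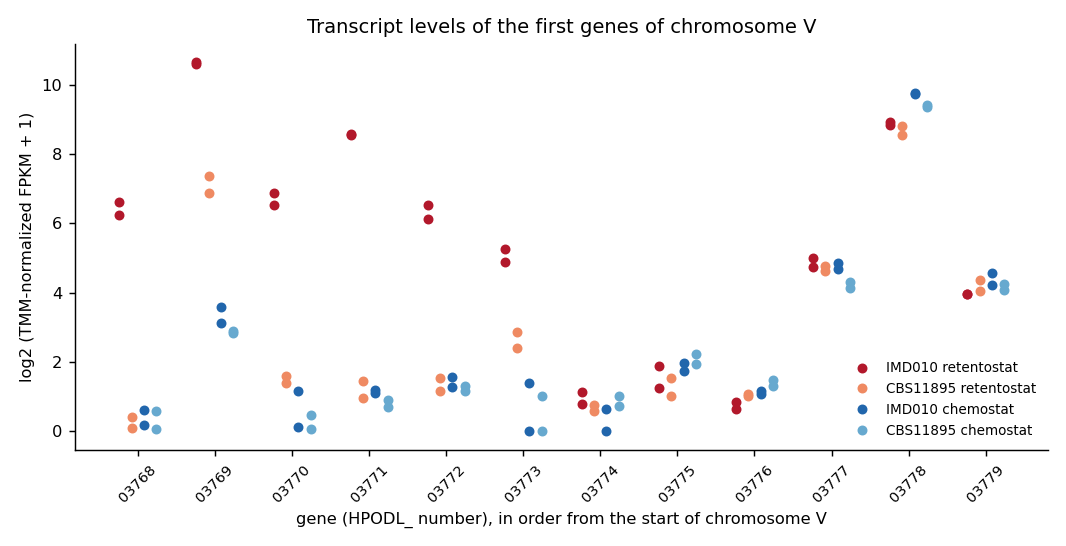
Level of the first 12 annotated genes of chromosome V in each of the 8 cultures, in order along the chromosome (horizontal axis); the vertical axis is log2 (TMM-normalized FPKM + 1). The first 6 genes are high in the 2 IMD010 retentostat cultures; from HPODL_03774 on no such rise is seen.

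Within the strains, 71 genes were higher and 58 lower in IMD010 (2.5% of those tested, or 1.37% and 1.12%) and 40 higher and 25 lower in CBS11895 (1.26%, or 0.774% and 0.484%). With a log2 fold change beyond 1 and an FDR below 0.05 these were 254 and 299 in IMD010 (10.7%, or 4.91% and 5.78%) and 179 and 172 in CBS11895 (6.79%, or 3.46% and 3.33%). Without TMM factors, where the median log2 fold change in IMD010 was −0.19 (0.01 with them), 64 were higher and 79 lower in IMD010. The count higher in CBS11895 was 66 without its second chemostat culture. Called higher in both strains were 30 genes, 42.3% of those of IMD010 and 75% of those of CBS11895, and called lower in both were 21, 36.2% and 84.0%. Over all 5169 genes the changes of the strains had a Pearson r of 0.832, across genes that are not independent, and 79.5% had the same sign. The SD of the log2 fold changes was 0.765 in IMD010 and 0.61 in CBS11895. Of the 105 genes called over both strains the change was larger in IMD010 for 83, 50 of the higher and 33 of the lower genes, and for 30 of the 105 the difference passed an interaction FDR of 0.05.

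In the 8 cultures 684 genes (13.2%) passed that interaction FDR, 365 with a larger value in IMD010 (7.06%) and 319 with a smaller (6.17%). This count depended strongly on the fit: with all 16 samples it was 8 and 6, without TMM factors 125 and 968, and without single cultures it ran between 37 and 607 and between 39 and 624. Differences in direction between the strains should be read by the values of each gene. HPODL_03985 (chromosome V) was at 39.7 and 38.1 in IMD010 retentostats and 180 and 138 in CBS11895 retentostats, against 36.3 and 40.6 in IMD010 chemostats and 23.1 and 33.4 in CBS11895 chemostats. It thus rose in CBS11895 (2.46) with a log2 fold change of 0.02 in IMD010. The transporter gene HPODL_01546 was at 19.1 and 26.4 in IMD010 retentostats and 59.5 and 52.9 in CBS11895 retentostats, against 73.9 and 68.4 in IMD010 chemostats and 48.2 and 40.9 in CBS11895 chemostats, a fall in IMD010 (−1.62) and a log2 fold change of 0.33 in CBS11895 (FDR = 0.0988). At an FDR under 0.05, 60.5% of all genes changed in IMD010 (30.5% higher, 30.0% lower) and 53.9% in CBS11895 (26.8% higher, 27.1% lower), and 60 genes changed in opposite directions in the strains.

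HPODL_03666 (chromosome IV, 1125146 to 1126195), named after its values were seen, held more reads than any other gene. It took 4.87 and 5.08% of the reads of IMD010 retentostats and 1.79 and 1.65% of those of CBS11895 retentostats, against 2.33 and 2.32% in IMD010 chemostats and 2.04 and 1.85% in CBS11895 chemostats. It thus rose in IMD010 (log2 fold change 1.30) and was slightly lower in CBS11895 (−0.18, FDR = 0.0435). The share of the 20 genes with most reads was also highest in IMD010 retentostats, at 19.2 and 18.6%, and 15.5 and 15.4% in CBS11895 retentostats, against 11.5 and 11.9% in IMD010 chemostats and 12.1 and 13.1% in CBS11895 chemostats.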

How the data were processed

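Poly(A) RNA was sequenced from 2 independent cultures per strain and condition. The authors aligned reads to RefSeq assembly of CBS11895 with STAR 2.5.3a, removed reads with more than 1 position, counted with HTSeq and deposited FPKM values. Sources differ on whether libraries kept strand, so overlapping genes are uncertain. The deposited FPKM held no TMM factor. The whole reads behind them were recovered for 5400 of 5408 genes (100.0% of values whole within 0.01). The divisor was not the gene length, so levels are not compared between genes. TMM factors (trims of 30% and 5%) were computed on these reads, genes with a group mean of at least 10 FPKM kept, and log2 (FPKM + 1) fitted with limma 3.58.1 (R 4.3.3, 4 group means, moderated with a trend), with Benjamini-Hochberg adjustment (FDR). A gene could pass this filter through a single group in which it was high. Tests planned for raw counts were not used, since the files hold FPKM. The average contrast is the mean of both strains' changes; n is 2 cultures per group, so the precision rests mainly on the spread between cultures. The fit was tested on simulated data.

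Named are the 10 largest changes in each direction among called genes without overlap, the 12 largest with an informative product name, the 5 largest interactions each way, the complex I and alternative NADH dehydrogenase genes, cytochrome c peroxidase, and 2 per list and direction. The following were chosen after their values were seen: HPODL_00085, HPODL_00379, HPODL_00453, HPODL_00462, HPODL_00472, HPODL_00509, HPODL_00647, HPODL_01033, HPODL_01106, HPODL_01140, HPODL_01197, HPODL_01313, HPODL_01343, HPODL_01414, HPODL_01577, HPODL_01635, HPODL_01636, HPODL_01758, HPODL_01825, HPODL_01875, HPODL_01892, HPODL_02026, HPODL_03666, HPODL_03773 and HPODL_03774 to HPODL_03779. Product names, given by the authors with their expression table, were known for 1999 genes (37.0%) and, from a second sheet used for naming only, 111 more; the 27 lists are searches in these names, or locus tags of respiratory genes, and so hold part of each pathway. Members, lists and rules were chosen with earlier results of these data known. Lists are described by counts, without a test. Alternatives were other scaling, filters, pseudocounts, all 16 samples, no variance trend, replicate block, length trend removal, voom weights, looser thresholds and leaving out each culture.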

Additional observations from a re-analysis of the deposited data

Results flagged for a closer look

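The change of 37 of the 135 named genes differed between the strains (interaction, IMD010 change minus CBS11895 change, FDR under 0.05 with limma over all genes). The absolute change was larger in IMD010 for 29 of them, and 7 also passed when all 16 samples entered the fit. These 7 were HPODL_03768, HPODL_03770 to HPODL_03772, HPODL_03869, HPODL_03985 and malate synthase (HPODL_01838). At the start of chromosome V the interaction was 6.11 for HPODL_03768, 3.01 for HPODL_03769, 4.85 for HPODL_03770, 6.97 for HPODL_03771 and 4.81 for HPODL_03772, and it was 5.24 for HPODL_03869. Of these, HPODL_03768 and HPODL_03770 to HPODL_03772 passed the filter for low levels only through the IMD010 retentostats.

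In carbon metabolism it was 2.36 for isocitrate lyase (HPODL_00142), 1.28 for malate synthase (HPODL_01838), 0.95 for carnitine acetyltransferase (HPODL_01480), 0.45 for glycogen phosphorylase (HPODL_01450) and −2.14 for a mitochondrial aldehyde dehydrogenase (HPODL_00824). The value of HPODL_00824 had a standard error of 0.598. HPODL_00824 and prefoldin subunit 4 below lay at the edge (FDR = 0.0498 and 0.0499). Neither passed with the libraries scaled by the median of ratios. The alternative NADH dehydrogenase HPODL_02792 had −1.08 and glutamate dehydrogenase (HPODL_01115) 1.33. Among stress genes the value was 1.02 for HPODL_02027, 0.62 for the DnaJ chaperone HPODL_01607, 0.48 for prefoldin subunit 4 (HPODL_01279) and 0.68 for superoxide dismutase (HPODL_01412).

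Among genes of autophagy and peroxisomes it was 0.43 for ATG3 (HPODL_01803), −0.58 for ATG25 (HPODL_01515), −0.83 for PEX11C (HPODL_00505), 0.60 for PEX22 (HPODL_01386) and −0.60 for primary amine oxidase (HPODL_01791). Among transporters and the cell wall it was −2.00 for the purine permease HPODL_00162, −1.95 for HPODL_01546, −0.99 for HSP150 (HPODL_01142) and 0.90 for STE6 (HPODL_00183). Tannase (HPODL_00160) had 1.56, the NAD+ salvage protein HPODL_01677 1.04, the phospholipid methyltransferase HPODL_00058 −0.61, TOS4 (HPODL_00413) −1.27 and ribosomal protein L31 (HPODL_00596) 0.70. Genes without an informative product name had −1.62 (HPODL_01274), −0.83 (HPODL_03225), −1.08 (HPODL_00720), −0.74 (HPODL_03368), −2.45 (HPODL_03985) and −1.86 (HPODL_03812).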

How the results depend on the processing

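Of 165 results for named genes, 96 kept their direction and their side of the threshold under the 14 settings other than leaving out a culture, and 95 under those as well. The setting that lost most was the fit of all 16 samples, with 58 lost. Ribosomal protein L31 (HPODL_00596) changed direction, with a log2 fold change of −0.32 against 0.01 (0.008, FDR = 0.932) after removal of the length trend and 0.008 (FDR = 0.933) with the replicate block as well; the cause was not tested. At an absolute log2 fold change above 1 and FDR under 0.05, 205 genes were higher and 222 lower over both strains, 254 and 299 in IMD010, and 179 and 172 in CBS11895. The count of interactions (365 and 319) was 125 and 968 without TMM factors, 8 and 6 with all 16 samples, and 149 and 754 with HPODL_03666 left out of the totals and no TMM factors, a setting chosen after seeing the data. Without single cultures, 61 to 76 genes were higher and 34 to 38 lower over both strains, 51 to 80 and 48 to 60 in IMD010, 27 to 66 and 22 to 29 in CBS11895, and 37 to 607 and 39 to 624 had an interaction. The lone culture left in a group was then assumed to vary like the others. Same-numbered cultures of different groups had correlations of −0.1396 to 0.1595, so the numbers do not pair them. With the replicate block 70 genes were higher and 36 lower. With the numbers of the IMD010 retentostats crossed, chosen after seeing the data, 69 were higher and 37 lower. With 2 cultures per group, small differences between the strains are at the limit of these data.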
